A study of Rattus norvegicus with 64 samples.

Results

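Uroplakins are the membrane proteins of the urothelial plaque, and 4 of the 5 rat genes listed here could be measured: Upk1a, Upk1b, Upk2 and Upk3a. The genes were chosen by name, and a probe was assigned to one of them where its RefSeq transcript, without version, mapped to that symbol. Upk1a, Upk2 and Upk3a each had 1 probe and Upk1b had 2, so that 5 of the 30367 gene probes, and 4 of the 15715 named genes on the array, are described. No probe matched the transcript of Upk3b, so it has no value here. Its relative Upk3bl1 had 2 probes and is given beside the members.

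The study asked how adipose-derived stromal cells (ASCs) change the healing of a bladder wall built on a graft. In male Wistar rats, part of the bladder was removed and replaced with bladder acellular matrix (BAM), a bladder wall stripped of its cells, or with BAM on which ASCs of a syngeneic donor had been cultured. The donors of the adipose tissue were 10 weeks old, while the age of the grafted rats is not given in the labels. Rats of both kinds were examined at 7, 30, 90 and 180 days, and total RNA of the reconstructed wall, cut away from the native bladder, was hybridized to 1-color Agilent rat arrays, 8 arrays for each of 8 groups and 64 in all. All groups received the matrix and the operation. The dose of seeded ASCs was the same for all seeded arrays, and BAM received none. Host and seeded cells were not measured apart in this RNA. In a bulk sample of a wall, fewer cells of a type and less RNA per cell cannot be told apart.

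The umbrella cells at the surface of the urothelium carry rigid plaques that make the bladder impermeable to urine. Uroplakins are assembled in pairs: the tetraspanins uroplakin Ia and uroplakin Ib bind uroplakin II and uroplakin IIIa, respectively, in the endoplasmic reticulum. The pairs leave the endoplasmic reticulum, reach the apical membrane in fusiform vesicles and pack there into crystals. Uroplakin IIIb can take the place of uroplakin IIIa beside uroplakin Ib, and Upk3b is also known as a gene of the mesothelium.

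The start regions of Upk1a, Upk1b and Upk3a are shown because these genes varied together over the arrays described below. Each runs from 250 bases before to 50 bases after the start of the gene and was taken from RefSeq (GRCr8) for 4 of the 5 uroplakins, Upk2 being the missing one. They lie at chr1:94997531-94997830 on the minus strand for Upk1a, at chr11:75459131-75459430 on the plus strand for Upk1b and at chr7:118014540-118014839 on the plus strand for Upk3a. Capitals mark the only match to the motifs that were searched.
Upk1a: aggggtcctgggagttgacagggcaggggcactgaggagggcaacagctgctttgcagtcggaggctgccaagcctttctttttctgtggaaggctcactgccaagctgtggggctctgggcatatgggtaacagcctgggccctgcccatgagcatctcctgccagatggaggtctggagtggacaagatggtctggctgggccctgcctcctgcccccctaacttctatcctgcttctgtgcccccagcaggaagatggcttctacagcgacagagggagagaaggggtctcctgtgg
Upk1b: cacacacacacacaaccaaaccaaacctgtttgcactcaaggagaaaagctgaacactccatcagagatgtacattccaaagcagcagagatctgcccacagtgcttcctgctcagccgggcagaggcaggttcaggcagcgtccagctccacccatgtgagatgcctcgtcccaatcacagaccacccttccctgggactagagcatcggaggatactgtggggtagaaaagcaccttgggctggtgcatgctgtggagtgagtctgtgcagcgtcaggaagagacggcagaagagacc
Upk3a: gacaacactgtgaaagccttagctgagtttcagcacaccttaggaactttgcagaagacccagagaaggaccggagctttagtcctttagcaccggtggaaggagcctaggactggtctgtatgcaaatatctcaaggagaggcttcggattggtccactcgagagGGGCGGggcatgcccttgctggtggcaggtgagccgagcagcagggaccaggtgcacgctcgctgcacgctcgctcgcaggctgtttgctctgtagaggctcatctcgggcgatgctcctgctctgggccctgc

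5 motifs of transcription factors known in the urothelium were searched on both strands. GATAA of the GATA factors, TGTTTAC of the FOXA factors, the grainyhead-like motif AACCNGGTT and the direct repeat bound by PPAR with RXR had no match in these 3 windows. GGGCGG of the KLF and Sp factors had 1 match, at position -84 of Upk3a. Over all 33469 windows of the same length in the table, GATAA was held by 26.5%, GGGCGG by 33.1%, TGTTTAC by 3.78%, AACCNGGTT by 0.365% and the direct repeat by 0.0538%. The match is a description of letters in the window.

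Levels are log2 values of the processed signal, scaled by subtracting the array's own 75th percentile over gene spots, so that 0 is the level of that percentile. Levels of different probes are not compared, since each probe has its own response. A probe counted as saturated, or as well above background, when at least 0.5 of its spots on an array carried that flag of the scanner software. All 5 probes were well above background on all 64 arrays, except Upk2 on 1 array, BAM replicate 7 at 7 days. Upk3a was saturated on 39 of 64 arrays, Upk1b on 18, Upk1a on 12 and Upk2 on 1, while the dimmer probe of Upk1b was saturated on none. A saturated signal is only a lower bound of the level.

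The 8 arrays of a group shared 1 slide that held no other group, and the scan date differed between the early (7 and 30 days) and the late slides (90 and 180 days). Slide effects and group effects thus cannot be told apart. The share of gene spots well above background was 73.3% to 95.6% at 7 and 30 days and 35.5% to 64.6% at 90 and 180 days. BAM at 90 days stood apart: its local background was 321 to 366 units, against 42 to 171 in the other groups, and its 75th percentile reached 3148 units. Replicate 8 of that group had a 75th percentile of 959 units. Markers fixed for the bladder wall were present: all 7 smooth muscle genes were well above background on every array of every group, as were 11 to 17 of 18 keratins and epithelial genes.

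Upk2, which encodes the partner of uroplakin Ia, gave the widest range of levels. In BAM at 7 days its level ran from -6.46 to 1.11 with a median of -1.62, and in BAM seeded with ASCs from -1.43 to 2.08 with a median of 0.96. The seeded arrays thus lay in the upper part of the BAM range, and 4 of 8 were above every BAM array. At 30 days Upk2 ran from 0.83 to 2.77 (median 1.83) in BAM and from 1.82 to 3.45 (median 2.55) in seeded grafts. At 90 days it ran from 0.72 to 4.77 (median 4.04) in BAM and from 3.63 to 6.21 (median 4.34) in seeded grafts. The groups overlapped at both of these days. At 180 days the order was turned, with 4.47 to 5.70 (median 4.92) in BAM and 3.46 to 4.89 (median 3.99) in seeded grafts, and 6 of 8 seeded arrays were below every BAM array.

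Upk1a encodes the tetraspanin that pairs with uroplakin II. Its level in BAM at 7 days ran from -2.36 to 4.12 with a median of 1.64, and in seeded grafts from 1.82 to 4.75 with a median of 3.90. At 30 days it ran from 3.59 to 4.76 (median 4.14) in BAM and from 4.18 to 5.64 (median 4.70) in seeded grafts. These groups overlapped, with 3 of 8 seeded arrays above every BAM array at 7 days and 4 of 8 at 30 days. At 90 days it ran from 2.48 to 5.40 (median 4.57) in BAM, where 4 of 8 arrays were saturated, and from 5.21 to 6.66 (median 5.81) in seeded grafts, where 2 of 8 were. At 180 days it ran from 5.28 to 6.20 (median 5.72) in BAM, where 5 of 8 arrays were saturated, and from 4.86 to 5.98 (median 5.46) in seeded grafts, none of which was saturated. The order of the groups at 90 days is not determined for Upk1a, since saturated arrays give lower bounds.

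Upk1b encodes the tetraspanin that pairs with uroplakin IIIa. Its 2 probes are given apart, because the brighter one was saturated on 5 of 8 arrays in seeded grafts at 30 days and in BAM at 90 and 180 days. In BAM at 7 days the dimmer probe ran from -2.62 to 0.32 with a median of -1.30, and in seeded grafts from -1.06 to 1.05 with a median of 0.36. At 30 days the range was -0.58 to 0.70 in BAM and 0.03 to 1.79 in seeded grafts. At 90 days it was -1.20 to 1.81 in BAM and 1.20 to 3.28 in seeded grafts, and at 180 days 1.29 to 2.36 in BAM and 0.46 to 1.81 in seeded grafts. On this scale the seeded arrays were placed higher than the BAM arrays at 7, 30 and 90 days and lower at 180 days, where 5 of 8 were below every BAM array, but the ranges overlapped at each day. The brighter probe had group means of 3.04 ± 1.52 (SD, n = 8) in BAM and 4.83 ± 0.60 (SD, n = 8) in seeded grafts at 7 days.

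Upk3a, whose protein is the partner of uroplakin Ib and faces the urine, could be read at 7 days and in BAM at 30 days. In BAM at 7 days it ran from -1.95 to 5.43 with a median of 3.32 and no array was saturated. In seeded grafts at 7 days it ran from 3.89 to 5.71 with a median of 5.40, with 3 of 8 arrays saturated. BAM arrays were again the more scattered, and 4 of 8 seeded arrays were above every BAM array. In BAM at 30 days it ran from 4.29 to 5.66 with no array saturated, while 7 of 8 seeded arrays were saturated at 30 days, when the 8 arrays lay between 5.28 and 5.54. At 90 and 180 days 7 or 8 of 8 arrays were saturated in every group. BAM at 180 days was saturated on all 8 arrays, so no fold is given for Upk3a there.

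**Figure D1:**
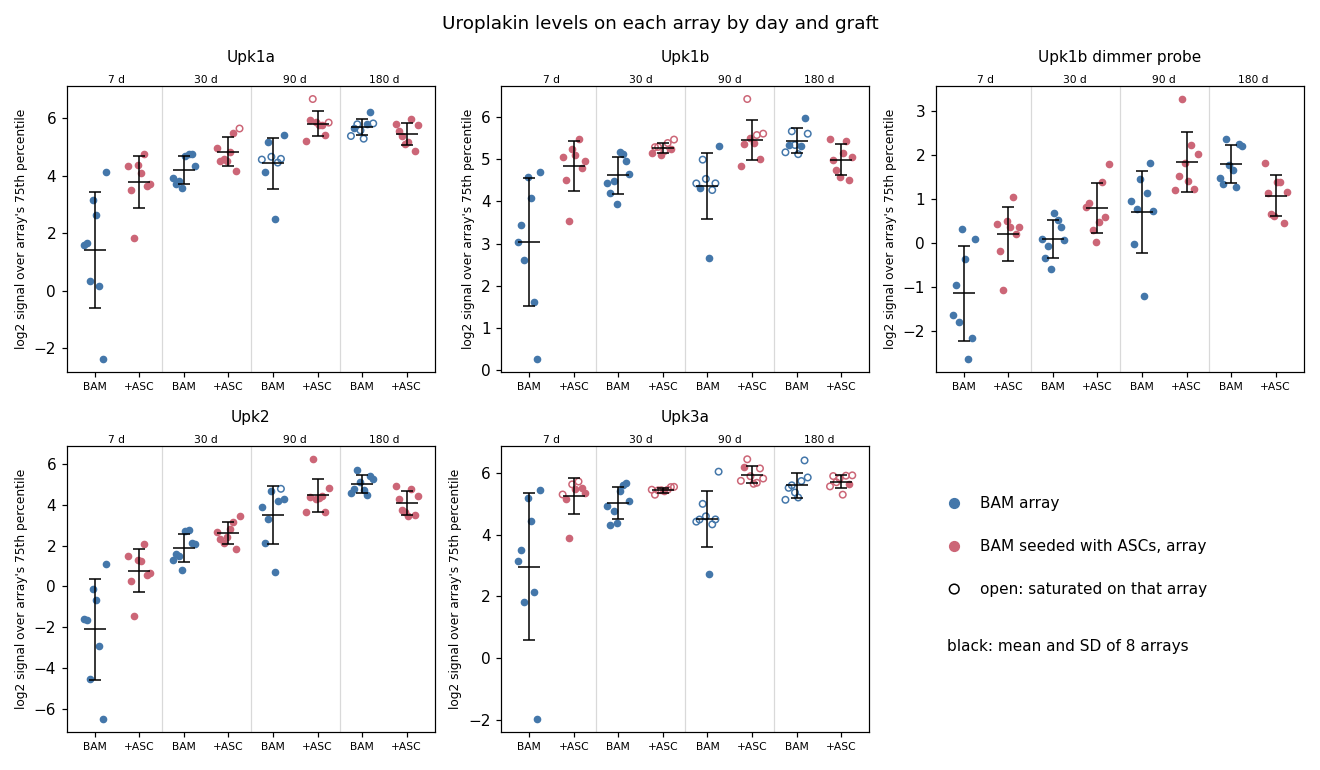
Level of each uroplakin probe on each array (y axis, log2 signal over the 75th percentile of the array) for BAM and BAM seeded with ASCs at 4 days (x axis). Points are arrays, open points are saturated on that array, and black bars give mean and SD of 8 arrays. BAM at 7 days has the largest SD and the lowest mean in all 5 panels.

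Scanner signals before scaling show the limit. Saturated Upk3a arrays had a processed signal of 58417 to 70275 units, and the highest Upk3a signal not counted as saturated was 64081 units. At 90 days the median signal before scaling was 62659 units in BAM and 65728 units in seeded grafts for Upk3a, and 67105 and 67932 units for Upk1a. The median 75th percentile used for scaling at that day was 2667 units in BAM and 1154 units in seeded grafts. Upk2 reached 68015 units without the flag. The dimmer Upk1b probe stayed at or below 9937 units on all 64 arrays.

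**Figure D2:**
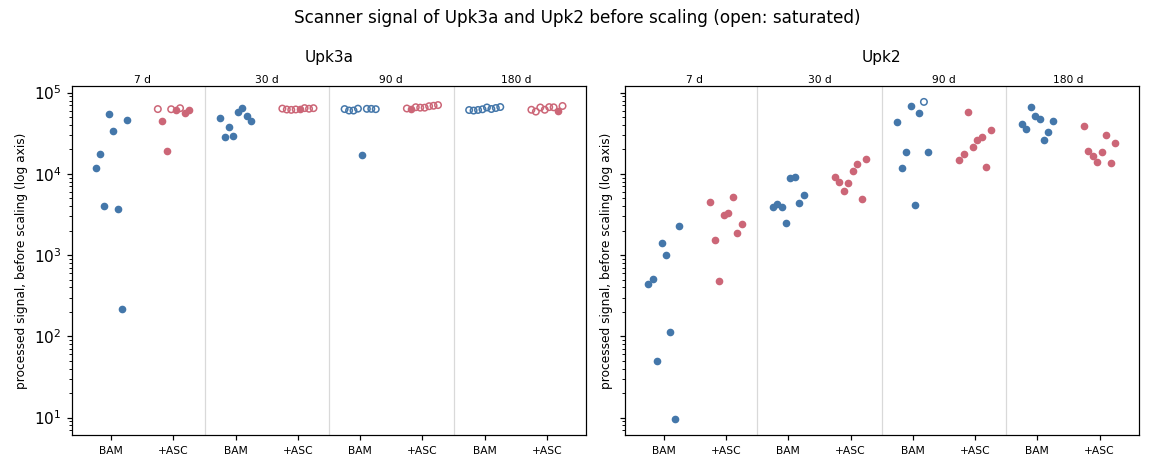
Processed signal before scaling (y axis, log scale) of Upk3a and Upk2 on each array, by graft and day (x axis), with saturated arrays as open points. Upk3a meets a ceiling between 58417 and 70275 units on 39 of 64 arrays, and Upk2 is saturated on 1.

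Group means put BAM at 7 days last for all 5 probes. The step from BAM at 7 days to the group next above it passed the limma test for the probes whose neighbor was not saturated, with 2.36 ± 0.45 (SE) for Upk1a, 2.87 ± 0.58 for Upk2 and 1.24 ± 0.34 for the dimmer Upk1b probe. No other step between neighbors passed for Upk2 and the dimmer Upk1b probe. Upk2 had its highest mean in BAM at 180 days, and the dimmer Upk1b probe in seeded grafts at 90 days (1.85 ± 0.69, SD, n = 8), next to BAM at 180 days (1.80 ± 0.43). For Upk3a and the brighter Upk1b probe, and for the upper groups of Upk1a, saturation leaves the order undetermined.

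At 7 days all 4 uroplakin genes were higher in grafts seeded with ASCs than in BAM. Genes were called by limma fitted over all 64 arrays, with a Benjamini-Hochberg adjusted p below 0.01 over 30367 probes and a fold change over 1.5. By this rule 2.11% of all probes were called higher at 7 days. The mean of Upk2 was 0.77 ± 1.06 (SD, n = 8) in seeded grafts and -2.10 ± 2.46 (SD, n = 8) in BAM, a log2 difference of 2.87 ± 0.58 (SE) or 7.30-fold (limma adjusted p = 0.00022). Upk1a rose by 2.36 ± 0.45 or 5.14-fold (limma adjusted p = 8.78e-05). Upk3a rose by 2.28 ± 0.47 (limma adjusted p = 0.000306), which is too small where 3 seeded arrays were saturated. Upk1b rose by 1.79 ± 0.35 on the brighter probe (limma adjusted p = 0.000116) and by 1.35 ± 0.34 on the dimmer one (limma adjusted p = 0.00317).

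These calls at 7 days depended on the spread assumed for the groups. BAM at 7 days varied far more than the other groups, with an SD of 2.03 for Upk1a against 0.28 to 0.90 elsewhere. With only the 16 arrays of 7 days in the limma fit the differences were the same and none of the 4 genes was called, at adjusted p of 0.0313 for Upk1b, 0.0342 for Upk2, 0.0352 for Upk1a and 0.0599 for Upk3a. In a two-sided exact permutation test of the 8 against 8 arrays, unadjusted, p was 0.00699 for Upk1a, 0.00466 for Upk1b, 0.00544 for Upk2 and 0.00746 for Upk3a. BAM replicate 7 was the lowest array for Upk1a, Upk2, Upk3a and the brighter Upk1b probe, and without it the differences were 1.82 for Upk1a, 1.39 for Upk1b, 2.24 for Upk2 and 1.58 for Upk3a, all still called, while the dimmer Upk1b probe (1.20, limma adjusted p = 0.0141) was not. That probe also lost its call without BAM replicate 6 or seeded replicate 6.

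At 30 days no uroplakin was called, against 1.2% of all probes called higher. The differences, seeded minus BAM, were 0.64 for Upk1a, 0.65 and 0.70 for the probes of Upk1b, 0.74 for Upk2 and 0.42 for Upk3a. All were above 0. The 95% intervals of the brightest probes included 0, as for Upk2 with -0.39 to 1.88, and that of the dimmer Upk1b probe was 0.03 to 1.37. The values of Upk3a and Upk1b are too small where seeded arrays were saturated. The two-sided exact permutation p, unadjusted, was 0.0238 for Upk1a, 0.000777 and 0.0141 for the probes of Upk1b, 0.0315 for Upk2 and 0.0401 for Upk3a (n = 8 in each group).

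At 90 days scaled and unscaled signals differed in direction for Upk2 and the dimmer Upk1b probe. None of the 4 genes was called on its brightest probe, with 3.88% of all probes called higher. Upk3a was saturated on 7 of 8 arrays of both groups. The brighter Upk1b probe was saturated on 5 BAM and 3 seeded arrays and Upk1a on 4 BAM and 2 seeded arrays. No 90 day difference is read for any of them. Upk2, saturated on 1 BAM array, differed by 0.97 ± 0.58 (limma adjusted p = 0.173), and its two-sided exact permutation p, unadjusted, was 0.122 (n = 8 in each group). The dimmer Upk1b probe was called, with 1.13 ± 0.34 (limma adjusted p = 0.00926), but lost the call when any one of 10 arrays was left out, as without BAM replicate 5 (0.86, limma adjusted p = 0.0368), and with only the 16 arrays of 90 days in the fit (limma adjusted p = 0.0322). Before scaling the medians ran the other way, with 31278 units in BAM and 23995 units in seeded grafts for Upk2, and 4498 and 3724 units for the dimmer Upk1b probe.

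At 180 days the means of Upk1a, Upk1b and Upk2 were lower in seeded grafts than in BAM and none was called, with 0.0428% of all probes called lower and 2.4% called higher. The differences were -0.24 ± 0.45 for Upk1a, -0.45 ± 0.35 and -0.71 ± 0.34 for the probes of Upk1b and -0.91 ± 0.58 for Upk2, with 95% intervals of -2.05 to 0.22 for Upk2 and -1.38 to -0.04 for the dimmer Upk1b probe. Upk1a and the brighter Upk1b probe were saturated on 5 of 8 BAM arrays and on no seeded array, so these differences are too small. The two-sided exact permutation p, unadjusted, was 0.185 for Upk1a, 0.0162 and 0.00793 for the probes of Upk1b and 0.00451 for Upk2 (n = 8 in each group).

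**Figure D3:**
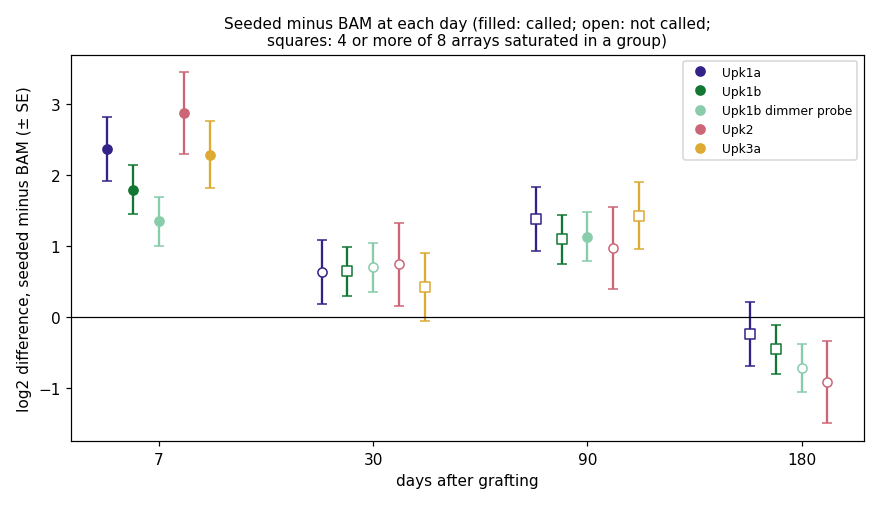
Seeded minus BAM difference of each uroplakin probe (y axis, log2, with the limma SE) at 4 days (x axis), with filled symbols for differences called by limma and open symbols for the others. Squares mark differences with 4 or more of 8 arrays saturated in a group, and Upk3a is left out at 180 days. The squares at 90 days, of Upk1a, the brighter Upk1b probe and Upk3a, are drawn but not read, since saturation leaves these differences undetermined. The differences lie between 1.35 and 2.87 at 7 days and between -0.91 and -0.24 at 180 days.

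The difference between grafts was itself compared between days. From 7 to 180 days it fell by 3.78 on the log2 scale for Upk2 (SE 0.82, limma adjusted p = 0.000526), by 2.60 for Upk1a (SE 0.63, limma adjusted p = 0.00216) and by 2.24 for Upk1b (SE 0.49, limma adjusted p = 0.000583). The dimmer Upk1b probe fell by 2.06 (limma adjusted p = 0.00138). Upk1a and the brighter Upk1b probe were saturated on 5 of 8 BAM arrays at 180 days. Upk3a was not called, and no value is given for it because BAM at 180 days was saturated throughout. Thus 3 of 4 genes were called lower, where 1.62% of all probes were. With only the 4 groups compared in the fit, 2 of 4 genes were called and Upk1a was not (adjusted p = 0.0186). That fit called 437 of all 30367 probes lower. From 90 to 180 days no gene was called on its brightest probe, with 3.84% of all probes called lower, but the dimmer Upk1b probe fell by 1.85 (limma adjusted p = 0.00363). From 7 to 30 days no gene was called, with 0.0988% of all probes called lower, and values were -1.72 for Upk1a and -2.13 for Upk2.

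Within BAM, all 4 genes rose from 7 to 30 days, when 4.44% of all probes were called higher. The difference was 3.95 ± 0.58 for Upk2 or 15.5-fold (limma adjusted p = 4.27e-07), 2.78 ± 0.45 for Upk1a (limma adjusted p = 3.11e-06), 2.05 ± 0.47 for Upk3a (limma adjusted p = 0.000835) and 1.57 ± 0.35 for Upk1b (limma adjusted p = 0.000477). Here 7 of 8 arrays at 30 days were above every array at 7 days for Upk2. The 7 day mean of Upk2 includes replicate 7 at -6.46, the array where it was not well above background. That low value widens the difference of means. The medians of Upk2 were -1.62 at 7 days and 1.83 at 30 days. With only these 16 arrays in the fit, Upk2 and Upk1a were still called and Upk1b (adjusted p = 0.0403) and Upk3a (adjusted p = 0.079) were not. From 30 to 90 days, across the scan dates, 35.2% of all probes were called higher and no uroplakin was, with 1.63 ± 0.58 for Upk2 (limma adjusted p = 0.012). From 90 to 180 days 5.21% of all probes were called higher and no uroplakin was. Upk2 gave 1.51 ± 0.58 (limma adjusted p = 0.0518) and the dimmer Upk1b probe 1.09 ± 0.34 (limma adjusted p = 0.014), while the other probes were saturated on 4 to 8 of 8 arrays in both groups and are not given.

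In seeded grafts no uroplakin was called from 7 to 30 days, with 6.67% of all probes called higher. Upk2 gave 1.83 ± 0.58 (limma adjusted p = 0.016) and was called with only these 16 arrays in the fit (limma adjusted p = 0.00408). From 30 to 90 days Upk2 rose by 1.86 ± 0.58 or 3.63-fold (limma adjusted p = 0.00639), the only one of 4 genes to do so on its brightest probe, with 17.8% of all probes called higher, and all 8 arrays at 90 days were above every array at 30 days. That call was lost when any one of 6 arrays was left out, as without the 90 day replicate 3 (1.61, limma adjusted p = 0.0217), and under quantile normalization (1.74, limma adjusted p = 0.019). Upk1a, with 0.98 ± 0.45 (limma adjusted p = 0.0639), was called with only these 16 arrays in the fit (limma adjusted p = 0.00273). The dimmer Upk1b probe was called too, with 1.05 ± 0.34 (limma adjusted p = 0.00909), and lost the call without any one of 10 arrays and in the fit of these groups alone. From 90 to 180 days no gene was called, with 0.616% of all probes called lower, and the differences were -0.38 ± 0.58 for Upk2 and -0.76 ± 0.34 for the dimmer Upk1b probe (limma adjusted p = 0.14). The number of steps called was not compared between the graft types by a test.

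The uroplakins varied together within groups. For each array, the deviation of a gene from the mean of its group was taken, and genes were correlated over the 64 arrays in 6 pairs. Pearson's r was 0.96 for Upk1a with Upk1b, 0.93 for Upk1a with Upk2, 0.93 for Upk1a with Upk3a, 0.91 for Upk1b with Upk3a, 0.89 for Upk1b with Upk2 and 0.84 for Upk2 with Upk3a. Spearman's rho was 0.64 for Upk2 with Upk3a and 0.74 to 0.89 for the other pairs. In a two-sided permutation test within groups, p was 1e-05 for every r and rho, the smallest it can give, and 1e-05 after adjustment over 6 pairs. Without the 2 arrays farthest from the median of the first gene, r was 0.75 to 0.93. Both values of a pair come from 1 array and carry the same subtraction of its 75th percentile.

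Over the 32 arrays of 7 and 30 days r was 0.92 to 0.97. Over the 32 arrays of 90 and 180 days r was 0.59 for Upk2 with Upk3a (permutation p = 0.0107), where most Upk3a arrays were saturated, and 0.79 to 0.96 for the other pairs. That lowest r fell to 0.28 without the 2 farthest arrays, a value that was not tested. Within the single groups of 90 and 180 days, r of Upk2 with Upk3a was 0.44 to 0.67 (n = 8 each). At these days Upk3a was saturated on 7 or 8 of 8 arrays per group, and Upk1a and the brighter Upk1b probe on up to 5. A saturated value is a ceiling less the array's own scaling percentile, which both genes of a pair share. There r cannot separate shared levels from shared scaling. In seeded grafts at 180 days Upk1a, Upk1b and Upk2 had no saturated array, and r was 0.79 to 0.93 for their pairs (n = 8). Without BAM at 7 days, r was 0.67 for Upk2 with Upk3a and 0.83 to 0.92 for the others over 56 arrays. With the dimmer Upk1b probe, which no array saturated, r was 0.78 with Upk1a, 0.84 with Upk2 and 0.61 with Upk3a. Within single groups of 8 arrays, the median r of the 6 pairs was 0.60 to 0.96 and the lowest was -0.08, for Upk1b with Upk3a.

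**Figure D4:**
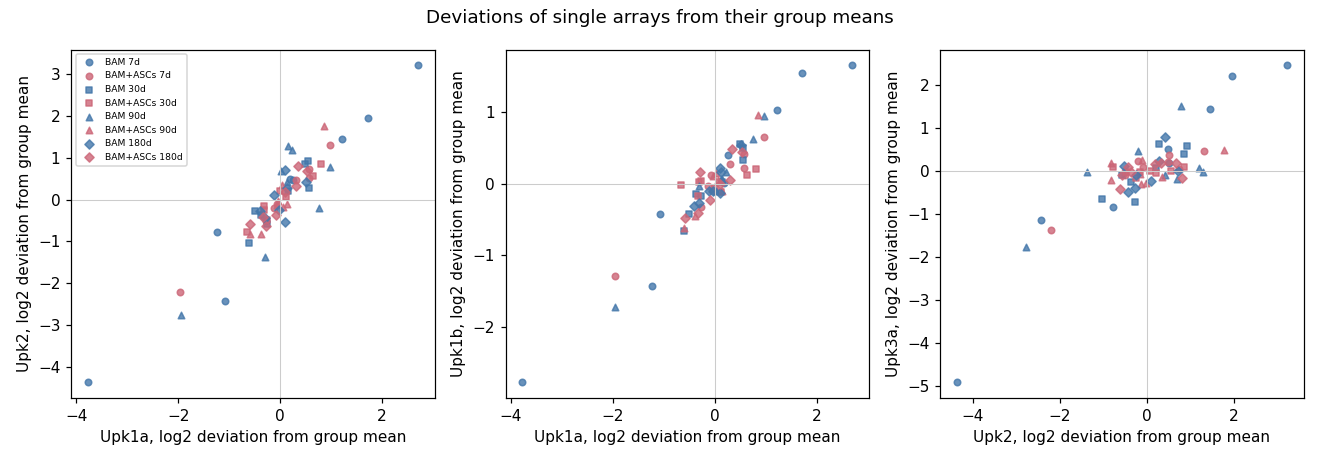
Deviation of each of 64 arrays from its group mean (log2) for Upk2 against Upk1a, Upk1b against Upk1a and Upk3a against Upk2, with color for the graft and shape for the day. Points lie along a rising line, r = 0.93, 0.96 and 0.84, and arrays of BAM at 7 days reach farthest from 0.

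The genes whose deviations were most like those of a uroplakin were sought among 11145 other genes well above background on at least 32 arrays. Upk1b ranked first for Upk1a, and Upk1a ranked first for Upk1b, Upk2 and Upk3a. The other members ranked lower, with genes that are no uroplakins ahead of some of them. Upk2 and Upk3a had ranks 2 and 4 for Upk1a, and ranks 11 and 5 for Upk1b. Upk1b and Upk3a had ranks 5 and 21 for Upk2, and Upk1b and Upk2 had ranks 3 and 14 for Upk3a. Of genes that are no uroplakins, Uchl1, which encodes a ubiquitin hydrolase, Prss8, the membrane protease prostasin, and Msx2, a homeobox transcription factor, were most like Upk1a, with r of 0.93, 0.92 and 0.90. Krt18, a keratin of simple and superficial epithelia, Prss8 and Uchl1 followed Upk1b, with r of 0.94, 0.92 and 0.92. Spag1, Prss8 and Sprr1a, a protein of the cornified envelope, followed Upk2, with r of 0.91, 0.91 and 0.89. Uchl1, Krt15, a keratin of basal cells, and Krt18 followed Upk3a, with r of 0.92, 0.91 and 0.89. For Krt15 and Krt18 with Upk3a, Spearman's rho was only 0.61 and 0.61, and r without BAM at 7 days was 0.77 and 0.72. Uchl1 with Upk3a had a rho of 0.86, and an r of 0.94 without that group. Upk3a was saturated on 39 of 64 arrays. For the genes named beside Upk1a, Upk1b and Upk2, rho was 0.73 to 0.89 and r without BAM at 7 days 0.80 to 0.89.

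Other genes of the urothelium were compared at the same days. Of 18 keratins and epithelial genes on the array, 9 were called higher in seeded grafts at 7 days (2.11% of all probes), 1 at 30 days (1.2%) and none at 90 and 180 days, and none was called lower at any day. Their median difference was 1.75, 1.15, 0.62 and -0.11 at 7, 30, 90 and 180 days, while the medians of all probes were -0.16, 0.11, -0.27 and 0.06. Epcam, an adhesion molecule of epithelia, rose by 2.60 ± 0.50 at 7 days (limma adjusted p = 9.56e-05). Krt18 rose by 2.14 ± 0.46 (limma adjusted p = 0.000457) and Krt7, also of simple epithelia, by 2.06 ± 0.51 (limma adjusted p = 0.00276). The basal keratin Krt5 gave 1.72 ± 0.56 (limma adjusted p = 0.0236) and Krt20, a keratin of umbrella cells, 0.02 ± 0.56, and neither was called; both were picked for their place in the urothelium after their values were seen, as were Pparg, Rxra, Rab8a, Vps33a, Snap23 and the 7 day value of Rab27b. At 30 days the tight junction gene Cldn3 rose by 4.58 ± 0.85 (limma adjusted p = 0.000466), and all 8 seeded arrays were above every BAM array.

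Of 9 urothelial transcription factors on the array, 7 were called higher at 7 days, 1 at 30 days and none later, where 2.11% and 1.2% of all probes were called higher at 7 and 30 days. Their median difference was 1.70, 0.86, 0.58 and -0.13 at 7, 30, 90 and 180 days. The zinc finger factor Klf5 rose by 2.01 ± 0.42 (limma adjusted p = 0.00042), the Ets factor Elf3 by 1.97 ± 0.46 (limma adjusted p = 0.00144) and Gata3 by 1.89 ± 0.34 (limma adjusted p = 4.47e-05). Pparg, the nuclear receptor that drives urothelial differentiation, also passed, with 0.93 ± 0.26 (limma adjusted p = 0.00857). Its partner Rxra gave 0.09 ± 0.17 and was not called. Foxa1 was called at 30 days, with 1.05 ± 0.22 (limma adjusted p = 0.00161). Of 7 genes of plaque trafficking, 2 were called higher at 7 days, 1 at 30 days and none later, with a median difference of 0.43 at 7 days and 4 of 7 genes above 0. Mal, a raft protein that helps plaque vesicles fuse with the apical membrane, rose by 1.99 ± 0.40 (limma adjusted p = 0.000178) and the motor Myo5b by 1.65 ± 0.35 (limma adjusted p = 0.000423) at 7 days. Rab8a gave -0.33 ± 0.09 at 7 days (limma adjusted p = 0.00371), under the fold change required, with 6 of 8 seeded arrays below every BAM array, and Vps33a (-0.27) and Snap23 (-0.12) were not called either. Rab27b, a GTPase of the fusiform vesicles, gave 0.73 ± 0.30 at 7 days (limma adjusted p = 0.0918) and was called at 30 days, with 1.42 ± 0.30 (limma adjusted p = 0.00217) and all 8 seeded arrays above every BAM array.

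**Figure D5:**
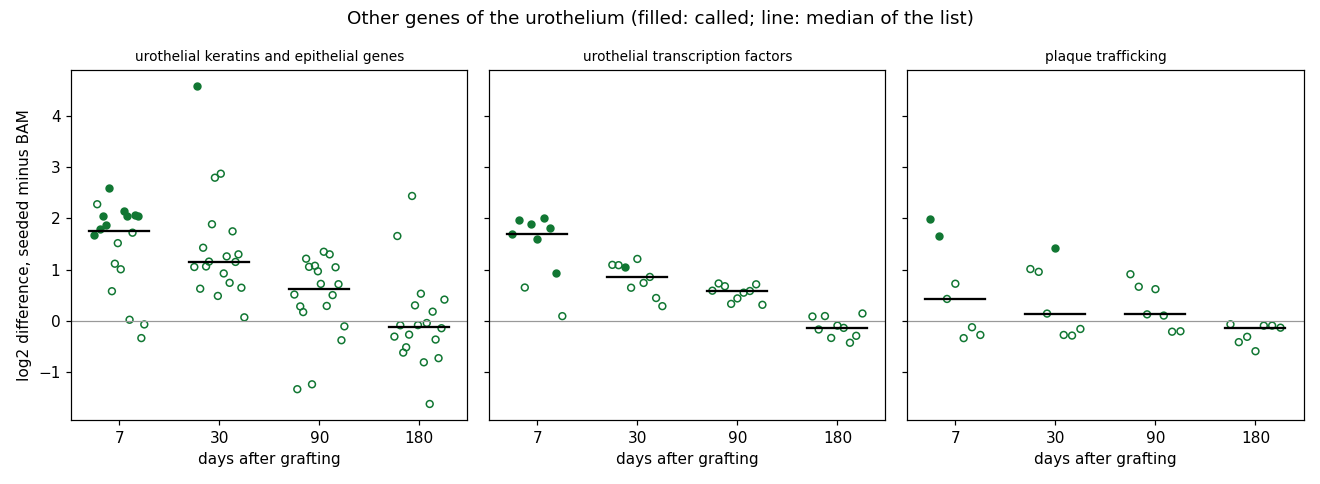
Seeded minus BAM difference (y axis, log2) of each gene of 3 lists at 4 days (x axis), with filled points for genes called by limma and a line at the median of the list. The third panel holds the 7 plaque trafficking genes. The median of keratins and epithelial genes goes from 1.75 at 7 days to -0.11 at 180 days, and that of transcription factors from 1.70 to -0.13.

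Markers of other cells were read beside these genes. The summed level of the 18 keratins and epithelial genes, in multiples of the 75th percentile of the array, had a median of 146 (86.7 to 157) in seeded grafts and of 59.0 (8.63 to 131) in BAM at 7 days. The corresponding medians were 27.8 and 45.3 for 6 leukocyte genes, 12.7 and 19.6 for 4 endothelial genes, 98.8 and 69.6 for 7 smooth muscle genes, 16.3 and 3.97 for 5 squamous genes and 7.25 and 7.56 for 6 mesothelial genes. At 7 days 2 of 4 endothelial genes were called lower, Vwf (-0.997 ± 0.17) and Kdr (-0.68 ± 0.17), where 5.62% of all probes were, none of 6 leukocyte and of 7 smooth muscle genes was called, and 1 of 5 squamous and 1 of 6 mesothelial genes were called higher, Sprr1a (2.56 ± 0.57) and Gpm6a (1.85 ± 0.30, well above background on 4 of 16 arrays). Their part in the uroplakin differences was not tested.

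The same readings were taken at the later days. At 90 days the smooth muscle genes Tagln, Myh11 and Actg2 were saturated on 7 or 8 of 8 BAM arrays, so the calls they received are not read. Cdh5 of the endothelium was called lower (-0.87 ± 0.23), where 8.6% of all probes were. The mesothelial gene Bnc1 was called higher at 30 days (1.82 ± 0.37) and lower at 90 days (-1.27 ± 0.37), where 1 of 16 arrays had it well above background. No marker of these 5 cell types was called at 180 days.

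Upk3bl1, the relative of Upk3b, had its highest mean in seeded grafts at 30 days on both of its probes, and the brighter one is given first. In BAM at 30 days it ran from -1.35 to 1.103 with a median of 0.23, and in seeded grafts from 0.36 to 3.81 with a median of 2.42. It was higher in seeded grafts at 30 days by 2.25 ± 0.55 or 4.74-fold (limma adjusted p = 0.0071), with 6 of 8 seeded arrays above every BAM array. Its difference at 7 days was 1.42 ± 0.55 (limma adjusted p = 0.0626). In seeded grafts it fell by 2.53 on the log2 scale from 30 to 90 days (SE 0.55, limma adjusted p = 0.000134). That step crosses the scan dates, and 10.3% of all probes were called lower in it. The call at 30 days was lost without any one of 8 arrays and with only the 16 arrays of that day in the fit (adjusted p = 0.0151). It was also lost with the replicate number as a block (adjusted p = 0.0105) and with the mean of both probes (limma adjusted p = 0.0106). The dimmer probe gave 2.12 ± 0.57 at 30 days (limma adjusted p = 0.0157) and was not called. From 30 to 90 days in seeded grafts that probe was called lower, with -2.31 ± 0.57 (limma adjusted p = 0.000745).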

How the data were processed

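Total RNA of 64 reconstructed bladder walls was read on 1-color Agilent rat arrays. The authors deposited the scanner output, in which the processed signal is a background-corrected intensity, and a value table of linear intensity. In 61 of 64 columns the median log2 difference between table and scanner signal was within 0.01, although BAM replicate 1 at 180 days had 24873 empty spots there, and 3 seeded columns of 7 days were offset by -3.31 to -3.30. The table, scaled the same way, served as an alternative. Here control spots were left out, processed signals were put on the log2 scale, the 75th percentile over gene spots was subtracted array by array, and spots of a probe were averaged. Probes were named through RefSeq transcripts, and the brightest probe stood for a gene. Differences were fitted with limma over all 64 arrays by group, with Benjamini-Hochberg adjustment over 30367 probes, and calls needed an adjusted p below 0.01 together with a change over 1.5-fold. The procedure was tested on simulated data in which each probe had 1 spread for all 8 groups. The wider spread of BAM at 7 days was thus not covered by that test. Named genes were the uroplakins, Upk3bl1, the 3 genes most like each uroplakin, and up to 3 called genes with the largest change in each marker list and comparison. Krt5, Krt20, Pparg, Rxra, Rab8a, Vps33a, Snap23 and the 7 day value of Rab27b were named outside this rule, after their values were seen. The members and lists were chosen with earlier results of these data known. The labels name the 8 arrays of a group biological replicates, so p-values measure the spread between these samples, all on one slide. The number of arrays limits the precision. Alternatives were normexp background correction, quantile normalization, the 75th percentile over probes well above background on all arrays, and the deposited values. Others were the replicate number as a block, fits of the compared groups alone, left-out arrays, and filters on dim probes.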

Additional observations from a re-analysis of the deposited data

Results flagged for a closer look

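In 56 sets of 8 arrays (7 probes in 8 groups), 5 held an array whose gap to the next was over 0.526 of the range of the group, where chance gives about 1 in 20 such sets. Seeded replicate 3 at 7 days was far below the others for Upk1a (1.82) and Upk3a (3.89). BAM replicate 5 at 90 days was far below for Upk1a (2.48) and Upk1b (2.65), where 4 and 5 of the 8 arrays were saturated. Seeded replicate 3 at 90 days was far above for Upk2 (6.21).

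The seeded minus BAM difference was not the same at all days by the limma test of the difference itself. Between 7 and 180 days it changed by -2.60 for Upk1a, -2.24 for Upk1b, -2.06 for the dimmer Upk1b probe and -3.78 for Upk2, with 5 of 8 BAM arrays at 180 days saturated for Upk1a and the brighter Upk1b probe. Between 90 and 180 days it changed by -1.85 for the dimmer Upk1b probe.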

How the results depend on the processing

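Numbers of uroplakin genes called, of 4, moved mostly with the arrays in the fit. With only the groups compared, 0 were called at 7 days and 1 at 90 days, with 285 and 794 of all 30367 probes called higher. The 1 at 90 days was Upk3a, which was saturated on 7 of 8 arrays of both groups, so that call is not read. From 7 to 30 days 2 were called in BAM (1272 probes) and 1 in seeded grafts (1603 probes). From 30 to 90 days in seeded grafts 2 were called (4017 probes). For the change of the difference, 2 each were called from 30 and from 90 to 180 days, with 286 and 556 probes called lower. Those from 30 days were Upk2 and the brighter Upk1b probe, and those from 90 days were Upk1a and the brighter Upk1b probe. Upk1a and that Upk1b probe were saturated on some arrays of these groups. At an unadjusted p below 0.01, 3 were called at 90 days, with 1382 of all probes higher. These were Upk1a, Upk1b on its brighter probe and Upk3a, whose 90 day differences saturation leaves undetermined. In BAM 2, Upk1a and the brighter Upk1b probe, were called from 90 to 180 days (1819 probes higher), both saturated on part of the arrays. From 30 to 90 days in BAM 1, Upk2, was called (10997 probes). In seeded grafts 1 was called from 7 to 30 days (4283 probes). For the change of the difference, 1, the brighter Upk1b probe, was called from 90 to 180 days (1573 probes lower). From 7 to 30 days 2, Upk1a and Upk3a, were called (298 probes). Normexp correction gave 1 from 30 to 90 days in BAM (2556 probes higher) and 1 from 7 to 30 days in seeded grafts (827). Without dim probes the brighter Upk1b probe was called at 90 days and from 90 to 180 days in BAM. Of the probes kept, 1122 of 13835 and 1452 of 11514 were called higher. With the mean of all probes of a gene 1 was called at 90 days, with 977 of 27324 tested called higher. Quantile normalization gave 0 from 30 to 90 days in seeded grafts, with 2992 of all probes called higher. Leaving out one array gave 0 to 2 at 90 days (2 without BAM replicate 8), 0 to 1 from 90 to 180 days (1 without BAM replicate 8 at 90 days) and 0 to 1 from 30 to 90 days in BAM, and 0 to 1 from 30 to 90 days in seeded grafts. For the change from 7 to 180 days, Upk3a was called lower under normexp (304 probes) and at unadjusted p below 0.01 (953). Leaving out seeded replicate 3 or BAM replicate 4, 5 or 8 at 7 days also gave this call of Upk3a. All 8 of its BAM arrays at 180 days were saturated. The cause of these movements was not tested.

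Small differences that were not called turned sign. Under quantile normalization Upk1b from 30 to 90 days in seeded grafts was -0.0756, and the change of the difference from 30 to 90 days was -0.0507 for Upk1a and -0.0997 for Upk2. Without one array, Upk3a from 7 to 30 days in seeded grafts ran from -0.0024 to 0.26, and the change of the difference from 30 to 90 days for Upk2 from -0.17 to 0.41. Deviations of same-numbered arrays of different groups had a mean r of 0.0111 (pairs -0.45 to 0.62), and arrays with other numbers 0.0011. On average, equal replicate numbers thus did not mark paired arrays. With the replicate block 4 genes were called at 7 days (621 probes higher) and 4 from 7 to 30 days in BAM (1321). For the change from 7 to 180 days 3 were called (479 probes lower). The block ended the call of the dimmer Upk1b probe at 90 days (limma adjusted p = 0.0115). It also ended that probe's call from 30 to 90 days in seeded grafts (limma adjusted p = 0.0113). The call of Upk3bl1 at 30 days was lost too. The correlations kept their sign in all 60 alternatives, and the highest adjusted p was 0.0107 for r and 0.0471 for rho, both for Upk2 with Upk3a at 90 and 180 days. The dimmer Upk1b probe, the arrays without BAM at 7 days, the scan dates taken apart and the exact permutation tests were chosen after seeing the data. Of all 30367 probes, 640 were higher and 1707 lower at 7 days, against 285 and 1885 with only these groups, 345 and 1200 under normexp and 648 and 679 under quantile normalization. Saturation limits Upk3a at every day and the counts at 90 and 180 days, and one slide per group leaves slide and group inseparable.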
